A study of Homo sapiens with 105 samples.

Results

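Outer membrane vesicles (OMVs) of the Gram-negative gut bacterium Proteus mirabilis were set against free lipopolysaccharide (LPS) in Caco-2 cells after 24 h of exposure. The members are the libraries that GEO's titles place in the P. mirabilis OMV group or in the LPS group of that time, 8 libraries with 4 per group, in a series of 28 groups in which 66 libraries were kept for the fit and 39 were left aside. Caco-2 (ATCC HTB-37) is a human colorectal carcinoma line that takes on features of small-intestinal enterocytes in culture, so these are cells of one line without immune or stromal neighbours. Both groups were treated in the culture medium. The OMV wells received 6 x 10 to the power of 9 vesicles of strain DSM 4479, and the LPS wells received LPS at 0.2 ng/µl by the labels, while the methods of the study give the same figure per ml, so that the amount is uncertain. Wells with PBS, the vehicle, were the untreated control. The labels do not say whether replicates came from separate cultures, and a p-value given here reflects differences among libraries that may be technical.

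The rule for the comparison leaves aside the libraries of lanes 2, 3 and 4 of 1 flow cell, because their expression did not follow their labelled time. This left replicates 2 and 3 of each group, 4 libraries, inside a fit to 66 libraries of all groups with the replicate number as a block. Replicates 4 and 5 of both groups all lie in the lanes that were left aside, and their values are given beside the others. The library of OMV replicate 2 came from another flow cell than the other 3 libraries compared, and the part of this in the results was not tested apart from a fit with flow cell and lane as terms, which called 41 genes. Total counts in the 8 libraries ran from 2894174 to 8558755. The Caco-2 identity list (EPCAM, CDH1, VIL1, CDX2 and others) was detected with 12 of 12 members and summed to 9225 to 10100 CPM (counts scaled to 1e+06 per library) with OMVs and 9154 to 10110 CPM with LPS.

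LPS is the lipid-anchored sugar chain of the Gram-negative outer membrane. On responsive cells LBP and CD14 hand it to LY96 (MD-2) and TLR4, and the adaptor MYD88 then leads to the inhibitor of kappaB kinases and to the transcription factor NF-kappaB, whose targets include chemokines and the pathway's own inhibitors. An OMV is a piece of that same outer membrane which buds off with LPS, outer membrane proteins, lipoproteins, peptidoglycan and lumenal cargo, so it can present several bacterial patterns at once. Intestinal epithelial cells are known for restrained responses to LPS alone.

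NF-kappaB dimers bind a 10-base kappaB element, and several genes that differ below carry one near their start. RefSeq promoter windows (GRCh38.p14, 250 bases before to 50 after the start) were at hand for 17 of the 28 genes that were higher with OMVs. A kappaB consensus, searched on both strands, lay in 7 of those 17 windows (41.2%) and in 11.3% of 35116 windows of all genes. The motif TTNCATCA, which covers ATF4 composite elements and was searched likewise on both strands, lay in 0 of the 17 and in 3.62% of all windows. At so low a share, 0 of 17 windows does not set the raised genes apart from all genes. The stretches below are shown because they belong to feedback inhibitors (TNFAIP3, NFKBIA), an activator (BIRC3) and chemokines (CXCL1 and CCL20, the latter just outside the threshold) described below, each 60 bases long and 5′ to 3′ along the gene's strand, with the matched 10 bases in capitals.
TNFAIP3, plus strand, chr6:137867167-137867226: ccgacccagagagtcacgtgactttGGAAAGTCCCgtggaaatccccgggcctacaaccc
NFKBIA, minus strand, chr14:35404796-35404855: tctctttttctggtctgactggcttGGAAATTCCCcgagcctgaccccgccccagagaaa
BIRC3, plus strand, chr11:102317260-102317319: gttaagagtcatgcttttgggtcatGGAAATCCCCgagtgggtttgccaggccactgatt
CXCL1, plus strand, chr4:73869289-73869348: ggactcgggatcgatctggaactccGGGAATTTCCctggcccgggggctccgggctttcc
CCL20, plus strand, chr2:227813738-227813797: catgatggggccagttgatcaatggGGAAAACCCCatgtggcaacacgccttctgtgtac
The 10 bases end 58 bases before the start in TNFAIP3 and 72, 190, 70 and 70 bases before it in NFKBIA, BIRC3, CXCL1 and CCL20. TNFAIP3, BIRC3 and CXCL1 each hold a second match. In TNFAIP3 it runs from 55 to 46 bases before the start and is left in lower case above. In CXCL1 it is on the other strand and overlaps the first, from 78 to 69 bases before the start. These matches are descriptions of the letters, and no binding was measured.

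Across 18775 genes, 29 differed between OMVs and LPS at an adjusted p under 0.05 (0.154%; edgeR quasi-likelihood F test, Benjamini-Hochberg adjustment over all genes tested). Of these, 28 were higher with OMVs (0.149%) and 1 was lower (0.00533%). At an unadjusted p under 0.05 there were 856 genes (4.56%), 484 higher (2.58%) and 372 lower (1.98%). Of the 28 genes that rose, 11 belong to the 8 lists of NF-kappaB signalling, chemokines, cytokines, complement, antimicrobial defence and antigen presentation, and 4 to the list of ATF4 targets and amino acid supply. Those 8 lists held 5 to 15 tested genes each and the ATF4 list held 30, of the 18775. The lists were chosen with earlier results of these data known. OMVs against PBS gave 21 genes (0.112%), of which 18 were higher (0.0959%). LPS against PBS gave 0 genes by edgeR, by DESeq2 and by limma voom, with 451 (2.4%) at an unadjusted p under 0.05 in edgeR. These 3 comparisons share libraries, and their values are set side by side below without any count of agreement between them.

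The count of 29 depends on the libraries and on the block. It was 0 with every library of the series, with 1898 genes at an unadjusted p under 0.05 in the fit with the block, and 24 of the 29 genes among them. Without LPS replicate 2 it fell to 8, without OMV replicate 2 to 16, without OMV replicate 3 to 15 and without LPS replicate 3 to 19. The 6 genes OR2I1P, TNFAIP3, PI3, C3, SDC4 and EHF passed in each of these 4 fits. Each such fit leaves 1 library in a group, which is assumed to vary like the libraries of the other groups. Without the replicate block 5 genes passed, namely OR2I1P, TNFAIP3, PI3, C3 and IKBKE. Replicates 3 and 2 themselves differed in the main fit for 11670 genes (62.2%) at an adjusted p under 0.05 by edgeR. Among the 29 genes 20 did so, and the cause was not tested.

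The feedback inhibitors of NF-kappaB were higher with OMVs in part. Of 14 tested members 3 were higher and 0 lower past the test, and 7 were higher at an unadjusted p under 0.05, with a list median of 0.396 on the log2 scale against 0.00707 over all genes tested. TNFAIP3 encodes A20, a ubiquitin-editing enzyme that shuts off signals to the kappaB kinases. It measured 85.5 and 69.3 CPM with OMVs in replicates 2 and 3, 30.1 and 34.9 CPM with LPS, and 35.8 and 29.2 CPM in PBS. The left-aside replicates 4 and 5 gave 52.7 and 38.6 CPM with OMVs and 34.6 and 29.3 CPM with LPS. All 4 OMV libraries thus stood above all 4 LPS libraries, while the LPS and PBS libraries of replicates 2 and 3 overlapped. PBS replicates 4 and 5 were at 42.03 and 65.7 CPM, one of them above both OMV libraries of these numbers, so a rise over PBS is not seen there. The log2 difference between OMVs and LPS was 1.27 ± 0.11 (SE, n = 2 per group), a 2.41-fold higher level, with an adjusted p of 6.2e-14 from edgeR.

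NFKBIA encodes IkappaB-alpha, which holds NF-kappaB in the cytoplasm and is resynthesised after activation. Its level was 46.6 and 39.6 CPM with OMVs against 25.3 and 26.9 CPM with LPS, and 33.6 and 29.9 against 22.3 and 29.04 CPM in replicates 4 and 5. The groups did not overlap over the 8 libraries, although the gap between the nearest libraries of replicates 4 and 5 was small. The log2 difference was 0.72 ± 0.15 (adjusted p = 0.0080, edgeR). ZC3H12A encodes Regnase-1, an RNase that degrades inflammatory mRNAs. It stood at 19.2 and 16.9 CPM with OMVs and 7.93 and 8.39 CPM with LPS, a log2 difference of 1.16 ± 0.23 (adjusted p = 0.0028, edgeR). The groups overlapped in replicates 4 and 5, at 10.4 and 11.8 CPM against 10.3 and 11.0 CPM.

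Other inhibitors of the list had positive differences that did not pass. NFKBIZ, an atypical inhibitor that also serves as a coactivator, differed by 0.86 ± 0.25 (adjusted p = 0.34, edgeR), and BCL3, its relative, by 0.52 ± 0.16 (adjusted p = 0.34, edgeR). Both had an unadjusted p under 0.05.

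Among the 5 NF-kappaB subunits RELB alone passed the test. RELB, the partner of p52 in the non-canonical arm and a target of NF-kappaB itself, measured 21.7 and 17.3 CPM with OMVs, 10.0 and 8.77 CPM with LPS and 8.16 and 8.20 CPM in PBS. The log2 difference from LPS was 1.05 ± 0.23 (adjusted p = 0.019, edgeR), and it passed in none of the 4 fits that left out a library. Its replicates 4 and 5 overlapped, at 28.2 and 10.7 CPM against 14.8 and 12.3 CPM. NFKB2, which encodes the p52 precursor, differed by 0.56 ± 0.31 and RELA by 0.18 ± 0.10, neither past the test.

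Among 15 kinases and activators 2 were higher and 0 lower past the test, with a list median of 0.0553. IKBKE, the kinase IKK-epsilon, stood at 31.9 and 27.5 CPM with OMVs, 14.6 and 15.4 CPM with LPS and 12.1 and 13.2 CPM in PBS. Its log2 difference from LPS was 0.99 ± 0.17 (adjusted p = 2.1e-04, edgeR), but replicates 4 and 5 lay at 17.8 and 16.1 CPM against 18.5 and 12.9 CPM and overlapped. BIRC3, the ubiquitin ligase cIAP2, was at 11.6 and 6.06 CPM with OMVs and at 2.64 and 4.003 CPM with LPS, a log2 difference of 1.45 ± 0.31 (adjusted p = 0.011, edgeR). BIRC3 was on the other side in replicates 4 and 5, with 5.34 and 3.71 CPM against 4.80 and 5.16 CPM and a log2 difference of -0.14.

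**Figure D1:**
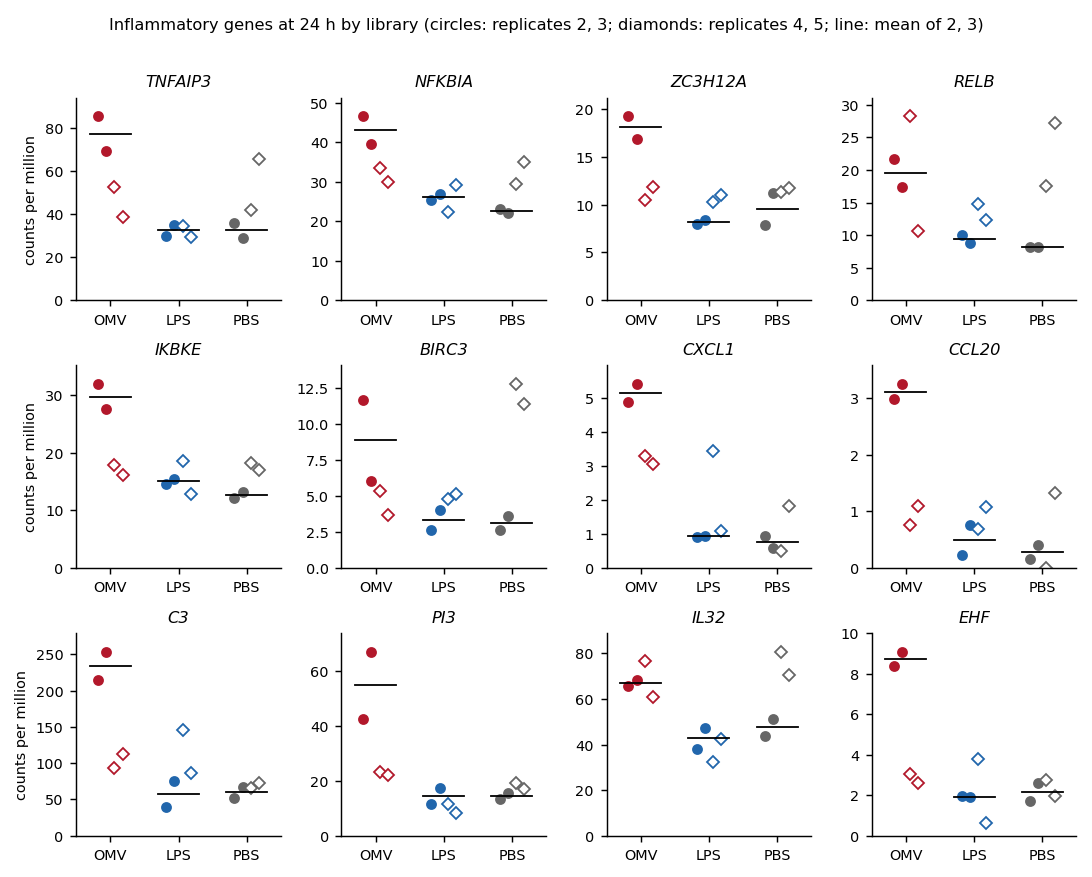
CPM of 12 inflammatory genes in each library at 24 h with OMVs, LPS or PBS, each axis starting at 0. Circles are replicates 2 and 3, which entered the fit, diamonds are replicates 4 and 5, which were left aside, and the line is the mean of replicates 2 and 3. The circles of OMVs lie above those of LPS in each panel, while the diamonds overlap between OMVs and LPS for C3, BIRC3, RELB, IKBKE, ZC3H12A, CXCL1, CCL20 and EHF.

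Of 20 chemokines listed only 8 had enough counts to be tested, and 1 passed. The list median was 1.67, or 1.12 without CXCL5, which had 0 counts in both LPS libraries. CXCL1, which draws neutrophils, had 18 and 25 counts with OMVs (4.87 and 5.41 CPM) and 8 and 5 counts with LPS (0.919 and 0.953 CPM). The PBS libraries of replicates 2 and 3 were at 0.941 and 0.5996 CPM, on the level of LPS. The log2 difference was 2.40 ± 0.48 (adjusted p = 0.0039, edgeR), and it passed in none of the 4 fits that left out a library. Among replicates 4 and 5 the OMV libraries were at 3.31 and 3.05 CPM, one LPS library at 3.43 CPM and the other at 1.08 CPM.

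CCL20, the ligand of CCR6 that attracts dendritic cells and lymphocytes to the epithelium, lay just outside the threshold. It had 11 and 15 counts with OMVs and 2 and 4 with LPS, or 2.98 and 3.25 CPM against 0.230 and 0.762 CPM. Its log2 difference of 2.71 ± 0.65 had an adjusted p of 0.05004 by edgeR, and against PBS it was 3.41 ± 0.76 (adjusted p = 0.024, edgeR). CXCL10, a T cell chemokine, differed by 2.23 ± 0.77 on 8 and 6 counts against 4 and 1 (adjusted p = 0.71, edgeR). CXCL8 fell under the filter with 1 count over both OMV libraries and 0 over both LPS libraries. At this depth a difference in CXCL8 was not detectable.

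Single genes stood out in the effector lists. C3, the central complement component, had 215 and 254 CPM with OMVs, 39.3 and 75.5 CPM with LPS and 52.2 and 67.4 CPM in PBS. The log2 difference from LPS was 2.09 ± 0.19 (4.26-fold; adjusted p = 4.6e-09, edgeR). This did not carry over to replicates 4 and 5, where OMVs gave 93.1 and 112 CPM and LPS gave 146 and 86.9 CPM, a log2 difference of -0.14. Of the 14 complement genes tested no other passed, and the list median was -0.0265. The exons of C3 share 1357 bases with those of ENSG00000276980 on the same strand, and how reads there were assigned is not known.

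PI3 encodes elafin, a secreted inhibitor of neutrophil elastase with antimicrobial activity. It measured 42.5 and 66.9 CPM with OMVs and 11.5 and 17.4 CPM with LPS in replicates 2 and 3, and 23.2 and 22.2 against 11.7 and 8.39 CPM in replicates 4 and 5. Every OMV library was above every LPS library, and the log2 difference was 1.94 ± 0.17 (adjusted p = 8.5e-13, edgeR). SLPI, its relative among epithelial antiproteases, differed by 0.85 ± 0.37 and PIGR, the receptor that carries IgA into the lumen, by 2.71 ± 0.82 on low counts, neither past the test. In all, 1 of 13 antimicrobial and antiprotease genes passed, with a list median of 0.347.

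IL32, a cytokine produced by epithelial cells on inflammatory stimulation, was at 65.5 and 68.4 CPM with OMVs and 38.3 and 47.3 CPM with LPS. Replicates 4 and 5 showed the same order, with 76.6 and 60.8 against 32.2 and 42.6 CPM. The 8 libraries of OMVs and LPS were thus separated, although PBS replicates 4 and 5 were at 80.8 and 70.6 CPM, overlapping OMVs. IL32 had a log2 difference of 0.66 ± 0.11 from LPS (adjusted p = 2.1e-04, edgeR). Of 15 cytokine and TNF family genes no other passed. TNF and IL6 had 0 counts in all 8 libraries.

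OR2I1P, annotated as an olfactory receptor gene in the MHC region of chromosome 6, gave the lowest adjusted p of all genes. It had 34.7 and 29.9 CPM with OMVs and 8.39 and 5.15 CPM with LPS, and 20.4 and 12.9 against 8.23 and 3.66 CPM in replicates 4 and 5. The PBS libraries were at 8.47 and 6.60 CPM in replicates 2 and 3 and at 20.5 and 27.5 CPM in replicates 4 and 5. All OMV libraries were above all LPS libraries, but both PBS libraries of replicates 4 and 5 were above both OMV libraries of these numbers. Against LPS it had a log2 difference of 2.19 ± 0.19 (adjusted p = 1.4e-14, edgeR). Its exons (chr6:29550407-29557773, GENCODE v44, GRCh38, plus strand) overlap exons of UBD and GABBR1 on the minus strand. The largest overlap with a single one of these genes was 836 bases. UBD, the ubiquitin-like modifier FAT10, is an NF-kappaB and interferon target. No strand option is listed for the authors' counting, so reads of these overlapping genes cannot be told apart, and the gene of origin is uncertain. Exons of TNFAIP3, IKBKE, BIRC3, GARS1, DPP4, SLC7A11, SHMT2, MTHFD2, ENSG00000264324, SYBU, NIN and TAPBP overlap those of antisense genes too. So do those of CARS1 and of other named genes that did not pass.

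In the MHC class I list 1 of 15 members passed, with a list median of 0.184. TAPBP (tapasin), which helps to load peptides, stood at 133 and 160 CPM with OMVs against 113 and 117 CPM with LPS, a log2 difference of 0.34 ± 0.08 (adjusted p = 0.044, edgeR). In replicates 4 and 5 both OMV libraries were below both LPS libraries, at 110 and 133.7 CPM against 146 and 134.0 CPM. Of 16 interferon-response genes 0 passed, with a median of -0.000816.

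EHF, an ETS factor of epithelial cells, was higher with OMVs at 8.39 and 9.10 CPM against 1.95 and 1.91 CPM, a log2 difference of 2.15 ± 0.37 (adjusted p = 2.1e-04, edgeR). The groups overlapped in replicates 4 and 5, with 3.05 and 2.62 CPM against 3.77 and 0.645 CPM. SDC4, the heparan sulphate proteoglycan syndecan 4, was at 281 and 314 CPM against 195 and 218 CPM, and at 238 and 228 against 217 and 218 CPM in replicates 4 and 5, with no overlap. Its log2 difference was 0.53 ± 0.08 (adjusted p = 4.5e-05, edgeR). PERP, a membrane protein of desmosomes, measured 281 and 285 CPM against 211 and 213 CPM, and 232 and 225 against 208 and 220 CPM in replicates 4 and 5. It too separated all 8 libraries, with a difference of 0.42 ± 0.08 (adjusted p = 6.5e-04, edgeR).

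A further group of genes that rose belongs to amino acid supply. The transcription factor ATF4 drives a programme that restores amino acids, and its known targets include the enzymes of serine synthesis, mitochondrial one-carbon metabolism, the cystine carrier and several tRNA synthetases. Of 30 tested members of the list of ATF4 targets and amino acid supply 4 passed, all higher, and 14 were higher and 0 lower at an unadjusted p under 0.05, beside 2.58% and 1.98% of all genes. The list median was 0.442 between OMVs and LPS, 0.298 between OMVs and PBS and -0.0921 between LPS and PBS. Of the 30 members 28 had a positive difference between OMVs and LPS, where the median over all genes tested was 0.00707. In 22 of the 30 LPS was below PBS, against 52% of all genes.

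PSAT1, the aminotransferase of serine synthesis, was at 23.6 and 38.3 CPM with OMVs, 14.9 and 19.3 CPM with LPS and 19.8 and 23.4 CPM in PBS. The libraries of replicates 4 and 5 had 26.5 and 24.0 CPM with OMVs against 13.7 and 19.6 CPM with LPS. All OMV libraries were above all LPS libraries, with a log2 difference of 0.89 ± 0.15 (adjusted p = 2.1e-04, edgeR). Against PBS the difference was 0.54 ± 0.15 (adjusted p = 0.24, edgeR), and LPS lay below PBS by a log2 difference of -0.35 ± 0.15.

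SHMT2, which splits serine in mitochondria and passes on its one-carbon unit, was at 116 and 148 CPM with OMVs against 89.1 and 107 CPM with LPS. Replicates 4 and 5 were at 110 and 106 CPM against 79.2 and 91.2 CPM. Over the 8 libraries of SHMT2 the groups overlapped by 1 LPS library, at 107 CPM, and the lowest OMV library, at 106 CPM. The log2 difference was 0.45 ± 0.09 (adjusted p = 0.0039, edgeR). MTHFD2, the next enzyme of the mitochondrial folate pathway, differed by 0.50 ± 0.10 (adjusted p = 0.0080, edgeR), from 92.6 and 141 CPM with OMVs to 68.0 and 99.3 CPM with LPS. The groups overlapped here, so this difference rests on the pairing by replicate number. ENSG00000264324 passed as well (0.76 ± 0.14). Its exons overlap those of MTHFD2 on the other strand and of SLC4A5 and DCTN1 on the same strand. The largest overlap with a single one of these genes was 3809 of its 5059 exon bases, and reads of shared exons cannot be told apart.

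SLC7A11, the cystine/glutamate antiporter, measured 18.4 and 20.8 CPM with OMVs against 8.51 and 11.8 CPM with LPS, a log2 difference of 0.96 ± 0.19 (adjusted p = 0.0020, edgeR). In replicates 4 and 5 an LPS library at 21.1 CPM exceeded both OMV libraries at 17.6 and 16.8 CPM. GARS1, glycyl-tRNA synthetase, stood at 159 and 180 CPM with OMVs against 120 and 126 CPM, and at 153 and 153 against 82.0 and 132 CPM in replicates 4 and 5. All 8 libraries were separated, and the log2 difference was 0.47 ± 0.08 (adjusted p = 6.5e-04, edgeR). CARS1, cysteinyl-tRNA synthetase, lay just outside with 0.45 ± 0.12 (adjusted p = 0.14, edgeR) although all 8 libraries were separated here too. PCK2, a mitochondrial enzyme that links serine and glucose production, was also just outside with 0.47 ± 0.12 (adjusted p = 0.068, edgeR), and both its OMV libraries of replicates 4 and 5 were below both LPS libraries. ATF4 itself, SESN2 and CHAC1, named here after their values were seen, differed by 0.17 ± 0.09, 0.65 ± 0.20 and 1.38 ± 0.44, none past the test.

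**Figure D2:**
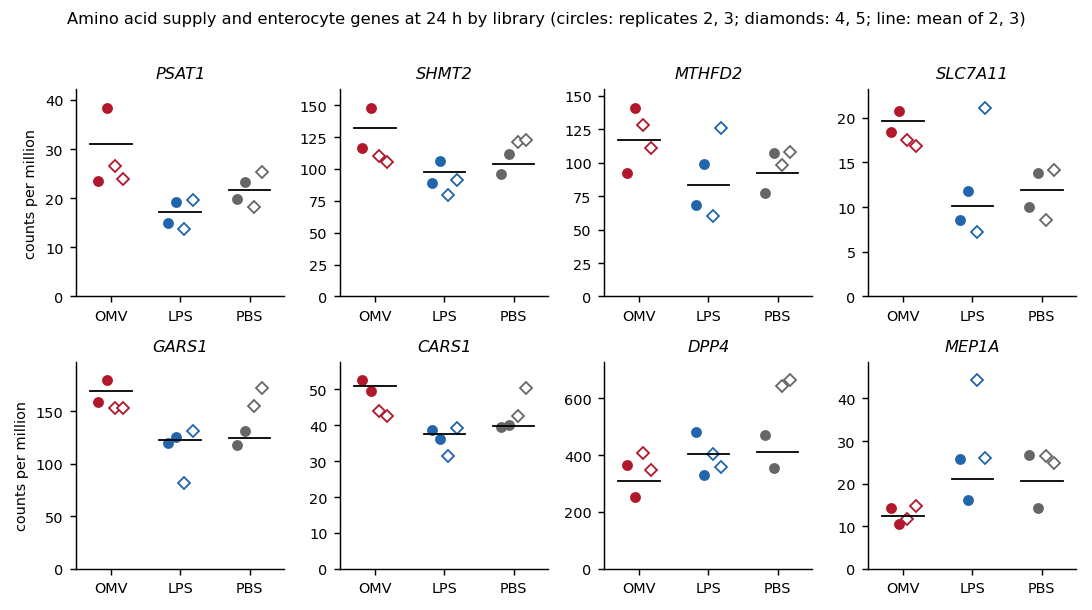
CPM of 6 genes of amino acid supply and of 2 brush border peptidases (DPP4 and MEP1A) in each library at 24 h, with the same symbols as for the inflammatory genes. PSAT1, GARS1 and CARS1 have all OMV points above all LPS points. SLC7A11 overlaps in the diamonds, and MTHFD2 in the diamonds and the circles. For DPP4 each OMV circle is below the LPS circle of the same replicate number while the groups overlap.

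DPP4, a brush border peptidase of enterocytes that trims incretins, was the 1 gene that fell. It was at 367 and 254 CPM with OMVs, 482 and 330 CPM with LPS and 471 and 354 CPM in PBS. Replicate 2 was higher than replicate 3 in each group, so that the groups overlapped and the difference of -0.38 ± 0.07 (adjusted p = 0.0020, edgeR) rests on the pairing by replicate number. For replicates 4 and 5 the levels were 407 and 349 CPM with OMVs and 406 and 360 CPM with LPS, a difference of -0.02. Of 19 enterocyte and brush border genes 0 were higher and 1 lower past the test, and the median was -0.194. MEP1A, the peptidase meprin alpha, differed by -0.72 ± 0.19 (adjusted p = 0.18, edgeR) and LCT, lactase, by -0.65 ± 0.19 (adjusted p = 0.31, edgeR). MEP1A had every OMV library below every LPS library, as did 1.74% of all genes. LCT overlapped over the 8 libraries. In replicates 4 and 5 both its OMV libraries were below both LPS libraries, as for 24.6% of all genes.

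The remaining genes that rose belong to no single list. ADAM8, a membrane metalloprotease, differed by 1.08 ± 0.22 from LPS (adjusted p = 0.0049, edgeR) but by 0.40 ± 0.21 from PBS, and LPS was below PBS by a difference of -0.68 ± 0.22. WNT10B, a WNT ligand, was at 18.4 and 11.1 CPM against 7.59 and 4.77 CPM (1.22 ± 0.25, adjusted p = 0.0056, edgeR), and on the other side in replicates 4 and 5 with a log2 difference of -0.70. NIN, a centrosome protein, differed by 0.75 ± 0.17, SYBU, a linker of cargo to kinesin, by 0.66 ± 0.15 and ATP9A, a lipid flippase of endosomes, by 0.39 ± 0.07. ATP9A was at 213 and 263 CPM with OMVs against 146 and 223 CPM with LPS in replicates 2 and 3. The groups overlapped, so its difference rests on the pairing by replicate number. NIN and SYBU separated all 8 libraries, but neither passed in any of the 4 fits that left out a library.

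Just outside the threshold stood, among others, CCL20, PCK2 and CARS1, described above, and 6 more genes. ITGB8, an integrin subunit that activates TGF-beta, differed by 1.02 ± 0.27 and separated all 8 libraries. GPRC5B, an orphan receptor, differed by 0.56 ± 0.15, PPP4R2, a phosphatase subunit, by 0.37 ± 0.10 and SVIL, an actin-binding protein, by 0.34 ± 0.09. FGB, the fibrinogen beta chain, was lower by a difference of -0.65 ± 0.15, as was the long non-coding RNA ENSG00000287581 at -1.14 ± 0.30. Their adjusted p-values in edgeR ran from 0.088 for FGB to 0.16 for SVIL.

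The genes that sense LPS were at or near 0 counts or did not pass the test. TLR4 had 0 counts over the 4 OMV libraries and 1 over the 4 LPS libraries, LY96 had 1 and 0, and LBP 0 and 2, among 38038408 counts in all 8. CD14, the co-receptor, was measured and differed by -0.05 ± 0.33, and MYD88, the adaptor, by -0.14 ± 0.14. Of 19 genes of the receptor complex and its adaptors 14 could be tested and 0 passed, with a median of 0.0209. IRAK2, a kinase of the MYD88 complex, had the lowest p of this list, with 14.6 and 13.6 CPM against 8.16 and 8.96 CPM and a difference of 0.70 ± 0.20 (adjusted p = 0.29, edgeR). Of the cytosolic LPS sensing list 3 of 11 could be tested and 0 passed. CASP4, the inflammatory caspase that binds LPS directly, differed by -0.13 ± 0.17.

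**Figure D3:**
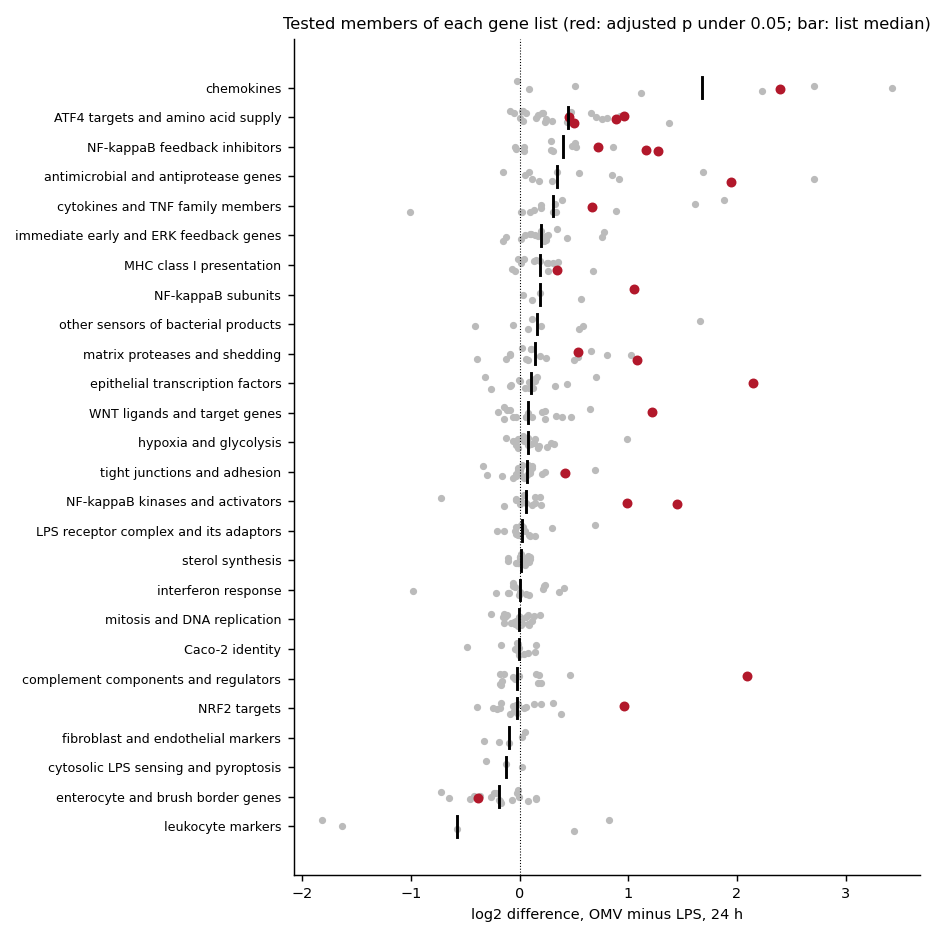
Log2 differences between OMVs and LPS at 24 h for each tested member of the 26 gene lists, ordered by the list median (black bar). Red points passed the test. Chemokines (median 1.67), ATF4 targets (0.442) and NF-kappaB feedback inhibitors (0.396) lie farthest to the right, and members of the lists of sterol synthesis, mitosis and Caco-2 identity lie around 0. In replicates 4 and 5, which are not plotted, the medians of those first lists were 0.138, 0.0818 and 0.0721. Sterol synthesis, mitosis and Caco-2 identity had -0.779, 0.14 and -4e-04 there. Over the 26 lists these medians ran from -1.04 (enterocyte and brush border genes) to 0.675 (immediate early genes), so the first lists did not stand out.

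Other lists showed no called gene in either direction. This held for sterol synthesis (20 tested, median 0.0144), mitosis and DNA replication (25, -0.00891), hypoxia and glycolysis (19, 0.0764), immediate early genes (18, 0.192) and the Caco-2 identity list (12, -0.0105). Of 14 leukocyte markers 5 were tested, none past the test. Their summed level was 9.92 to 16.2 CPM with OMVs and 13.7 to 18.9 CPM with LPS, and PTPRC, which marks all leukocytes, had 0 counts. Of 11 fibroblast and endothelial markers 5 were tested, none past the test, with sums of 63.1 to 90.3 CPM and 67.1 to 97.4 CPM. A single gene was higher among each of the lists of WNT ligands and targets (WNT10B of 19), epithelial transcription factors (EHF of 19), tight junction and adhesion genes (PERP of 27) and NRF2 targets (SLC7A11 of 18), with list medians of 0.0782, 0.101, 0.064 and -0.0282. Of 8 other sensors of bacterial products 0 passed, with a median of 0.156. Matrix proteases and shedding had 2 genes higher of 18, SDC4 and ADAM8. MMP1, a collagenase, and CD44, a hyaluronan receptor, differed by 1.02 ± 0.34 and 0.66 ± 0.24, neither past the test.

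At 24 h the series holds 12 groups, and the OMV libraries could be set against 24 other libraries of 11 groups within the fit. Both OMV libraries exceeded all 24 for 18 of the 28 raised genes, against 0.399% of all genes, with the reservation that the raised genes were chosen with these OMV libraries. For TNFAIP3 the lower OMV library was at 69.3 CPM and the highest of the 24 others at 37.8 CPM. For C3 these values were 215 and 117 CPM, the latter in the vesicle group of another bacterium in the series (Lc MV in the labels).

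LPS was the lowest of the 12 groups for 8 of the 28 raised genes, against 5.8% of all genes, with the same reservation. They included PSAT1, SHMT2, GARS1, ENSG00000264324, ADAM8, ZC3H12A and SYBU. PSAT1 averaged 17.1 CPM with LPS and ranged up to 27.5 CPM among the other groups besides OMVs, with a median over the 11 groups of 23.5 CPM. The mean of 30.9 CPM with OMVs was the highest, but its lower library at 23.5 CPM lay within the other groups. For TNFAIP3, in contrast, the mean of 32.5 CPM with LPS was near the median of 33.6 CPM over the 11 groups.

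**Figure D4:**
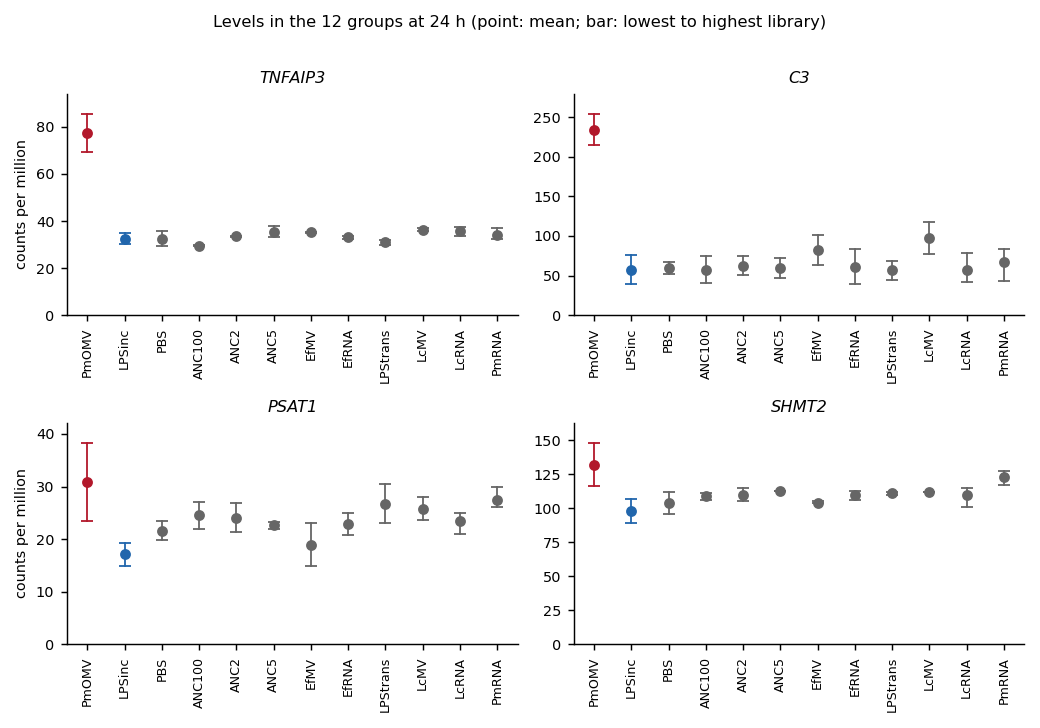
Mean CPM of TNFAIP3, C3, PSAT1 and SHMT2 in the 12 groups at 24 h, with bars from the lowest to the highest library of the fit and OMVs in red and LPS in blue. TNFAIP3 and C3 are highest in the OMV group. Mean C3 was 97.1 CPM in LcMV and 82.6 CPM in EfMV, other vesicle groups, against 59.8 CPM in PBS. For PSAT1 and SHMT2 the LPS group is the lowest and the OMV bar reaches into the range of other groups.

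Side by side with PBS, the median of the 28 raised genes was 0.55 for OMVs against PBS and -0.0853 for LPS against PBS, and 16 of the 28 passed the test of OMVs against PBS. Those 16 included the feedback inhibitors TNFAIP3 and NFKBIA, RELB, IKBKE, BIRC3, CXCL1, C3, PI3 and EHF. PSAT1, SHMT2, MTHFD2 and SLC7A11 were not among them, with adjusted p-values from 0.11 to 0.36 in edgeR. The 2 sets of genes did not divide cleanly. GARS1 was among the 16 (adjusted p = 0.0019, edgeR), while ZC3H12A (adjusted p = 0.067, edgeR) and TAPBP (adjusted p = 0.29, edgeR) were not.

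The same treatments were also sampled at 10 h, in other libraries, which share replicate numbers and flow cells with those of 24 h and enter the same fit with its block. Of the 28 raised genes 27 were higher with OMVs than with LPS at 10 h, against 50.8% of all genes, and 12 of them passed the test there, against 1.3% of all genes called higher there. The exception in sign was NFKBIA with -0.06 ± 0.13. The medians were 0.427 at 10 h and 0.825 at 24 h. PI3 (2.12 ± 0.15), EHF (1.88 ± 0.40) and C3 (1.65 ± 0.18) were already apart from LPS at 10 h, and PERP and IL32 were too. ADAM8 and ZC3H12A differed by 0.02 ± 0.21 and 0.24 ± 0.20 at 10 h, and PSAT1 by 0.36 ± 0.13 (adjusted p = 0.11, edgeR).

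A test of the change between the times gave 29 genes of 18775 (0.154%), and 0 of the 28 raised genes were among them. The closest were NFKBIA with a difference between the times of 0.78 ± 0.20 (adjusted p = 0.10, edgeR) and TNFAIP3 with 0.57 ± 0.15 (adjusted p = 0.12, edgeR). A larger difference at 24 h than at 10 h is therefore not shown for any of the 28, although each of these 2 values is positive. The 0 does not show that the differences are equal, and at an unadjusted p under 0.05 the same test gave 1625 genes (8.66%). In PBS, 4 of the 28 genes were lower at 24 h than at 10 h past the test and 0 were higher.

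**Figure D5:**
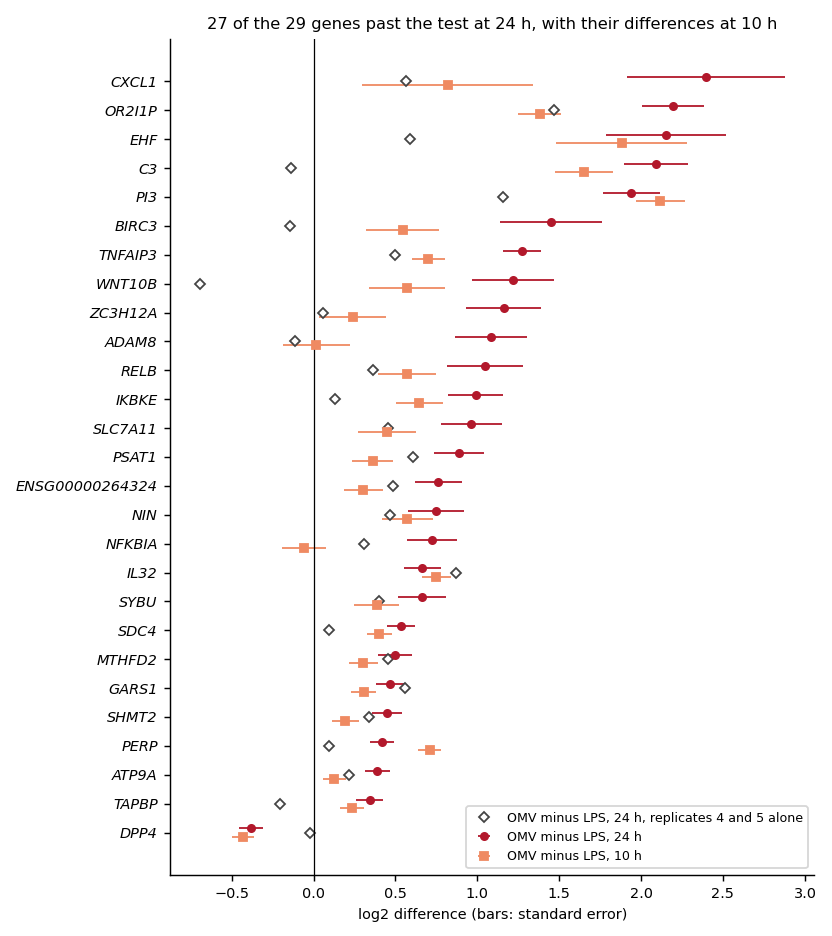
Log2 differences between OMVs and LPS for 27 of the 29 genes past the test at 24 h, at 24 h (red circles) and 10 h (orange squares) with standard errors, and in replicates 4 and 5 at 24 h alone (open diamonds). At 10 h every plotted gene higher at 24 h but NFKBIA lies above 0, and in replicates 4 and 5 C3, BIRC3, WNT10B, ADAM8 and TAPBP lie below it.

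Replicates 4 and 5 at 24 h, which entered neither the calls nor the fit, give a second view of the comparison, within lanes whose samples did not follow their labels. Of the 28 raised genes 23 had a positive difference there, against 50.6% of all genes, with a median of 0.382 against 0.0066. Both OMV libraries exceeded both LPS libraries for 13 of the 28, against 26.8% of all genes. Over all 8 libraries 11 of the 28 had every OMV library above every LPS library, against 1.66% of all genes (1.74% had every OMV library below), though replicates 2 and 3 chose these genes. These 11 were OR2I1P, TNFAIP3, PI3, SDC4, IL32, PSAT1, PERP, GARS1, NFKBIA, SYBU and NIN. Against PBS, replicates 4 and 5 gave another picture. Both OMV libraries exceeded both PBS libraries for 12 of the 28 genes, against 26.7% of all genes, and were below both for 6, against 26.1%, with a median log2 difference of 0.115 against 0.00205 over all genes. Of the 11 genes that separated OMVs from LPS, PI3, SDC4, SYBU and NIN had both OMV libraries above both PBS libraries there. TNFAIP3, IL32, PSAT1, PERP and NFKBIA overlapped with PBS, and OR2I1P and GARS1 were below it.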

How the data were processed

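RNA of Caco-2 cells was rRNA-depleted and sequenced in paired-end reads. The authors deposited raw read counts per gene, made with STAR on GRCh38 and featureCounts, and the counts were used as deposited. Columns were assigned to samples by title, and groups by GEO's labels. Of 63241 genes listed, 46395 had a count and 18775 passed edgeR's filter. edgeR 4.0.16 (R 4.3.3) fitted 66 libraries with TMM scaling, 1 coefficient per group and the replicate number as block, using the robust quasi-likelihood fit, F tests and Benjamini-Hochberg adjustment at 0.05. CPM are counts scaled to 1e+06 per library with TMM, so levels are not comparable between genes. DESeq2 1.42.0 and limma voom (limma 3.58.1) were alternatives. The scripts were tested on simulated counts. Deviations of libraries with the same number correlated at 0.785 between OMVs and LPS over replicates 2 and 3, over the 1500 most variable genes. The unit of all deposited values is counts, and depth limits the precision of low genes. Standard errors are those of the edgeR fit and include the spread between libraries. Symbols matched for 62030 IDs. Genes named in the text were those past the test, the 10 next, up to 4 of the lowest p per list, CCL20, CXCL8, CXCL10 and LPS receptor genes, and others are said to be chosen after their values were seen. The members and lists were chosen with earlier results of these data known. Some genes are not reported here.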

Additional observations from a re-analysis of the deposited data

Results flagged for a closer look

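In 58 groups of 4 libraries (2 per called gene), the gap of 1 library to the others was large for its group in 3, and chance flags about 1 in 20 groups. SDC4 in LPS replicate 2 was at 195 CPM while the other LPS libraries were at 217 to 218 CPM. CXCL1 in LPS replicate 4 was at 3.43 CPM while the others were at 0.919 to 1.08 CPM. NIN in OMV replicate 3 was at 29.7 CPM while the other OMV libraries were at 20.8 to 21.1 CPM.

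The difference between OMVs and LPS itself differed between 24 h and 10 h for 29 genes (edgeR, interaction of treatment and time), 24 with a higher and 5 with a lower value at 24 h. SOD2, the mitochondrial superoxide dismutase, had a log2 difference of 0.11 ± 0.08 at 24 h and 0.82 ± 0.07 at 10 h, a change of -0.716 (adjusted p = 7.5e-06). SAT1, which acetylates polyamines, differed by 0.12 ± 0.15 and 1.16 ± 0.11, a change of -1.03. NYNRIN differed by -0.17 ± 0.11 at 24 h and -1.15 ± 0.12 at 10 h, a change of 0.976. SLC38A3, a glutamine carrier, differed by 0.22 ± 0.15 and -0.97 ± 0.16, a change of 1.19. The larger of both differences was thus the one at 10 h in each of these 4 genes.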

How the results depend on the processing

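The 29 genes kept their direction in each of the 22 other fits run. These fits reuse OMV and LPS libraries by which the genes were chosen, so a kept direction is no independent evidence. The same genes in replicates 4 and 5 alone, a view added after seeing the data and without a test, changed sign for C3 (-0.14), ADAM8 (-0.11), WNT10B (-0.70), BIRC3 (-0.14) and TAPBP (-0.21). With every library of the series, 0 genes differed between OMVs and LPS, 0 higher and 0 lower, with or without the block, 0 between OMVs and PBS, and 0 between the times. No gene passed there although 1421 (no block) and 1898 (block) had an unadjusted p under 0.05, in edgeR, and the cause was not tested.

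The numbers of replicates 2 and 3 paired the groups (r = 0.785, 1 value, since deviations of 2 libraries mirror each other). Over all 8 libraries same-numbered libraries correlated at 0.70, 0.366, -0.528 and 0.471 for replicates 2, 3, 4 and 5. The LPS library of the same number was the best match to the OMV library for replicates 2, 3 and 5, but not for replicate 4. Without the replicate block 5 genes differed, 5 higher and 0 lower, with 6 between OMVs and PBS and 0 between the times. With the block set within each time 63 differed, 53 higher and 10 lower, with 61 against PBS and 264 between the times. With libraries of 24 h only 63 differed, 51 higher and 12 lower, with 64 against PBS. With flow cell and lane as terms 5 were lower, 32 differed from PBS and 82 between the times. Lower genes numbered 2 with DESeq2, 2 with limma voom, 5 without the filter and 3 without the robust option. Between the times DESeq2 gave 51 and no filter 52. Leaving out 1 library gave 8 to 19 genes, 8 to 18 higher and 0 to 1 lower, 8 to 16 against PBS and 4 to 19 between the times. The study's effect size rule, which uses no p-value, picked 476 genes in the 8 libraries (98 higher, 378 lower), with 4 of the 29 among them.

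CD14 turned to 0.27 with every library, without and with the block, and ran from -0.41 to 0.23 over fits without 1 library. ATF4 ran from -0.00286 to 0.31 in those fits. The time differences of NYNRIN (-0.35 and -0.36) and SLC38A3 (-0.0349 and -0.0543) turned in the same 2 fits with every library. CXCL1, CCL20 and CXCL10, with 1 to 8 counts in each LPS library of the fit, are limited by depth.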
